A study of Mus musculus with 7 samples.

Results

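Colon RNA was followed over the weeks after repeated TNBS enemas in 3 pools, taken at week 8, week 10 and week 12 of the study. These are 3 of the 7 samples of the series, chosen by their labels as the TNBS groups killed 2 weeks or more after the last enema. Week 8 stands for 2 weeks since the last enema (RNA of 4 mice), week 10 for 4 weeks (5 mice) and week 12 for 6 weeks (4 mice). The main comparison set week 12 against week 8, with week 10 as the step between, and no saline sample took part in it.

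All mice were female, of the outbred CD-1 stock, and 10 to 12 weeks old at the start. Every TNBS mouse had been given TNBS (trinitrobenzene sulphonic acid) in ethanol by 6 enemas; TNBS is a hapten, which binds to proteins of the bowel wall and makes them targets of immunity. Both agents are thus shared by all 3 pools, and no group given ethanol alone was analysed here. The colon was sampled 4 ± 0.5 cm from the anus, RNA was extracted in TRIzol, and 10 µg of pooled RNA went into each labelling. Reference values given beside these are those of the later saline pool (4 mice, 2 killed at week 8 and 2 at week 10) and the week 6 pools, killed 3 days after the last enema (TNBS, 6 mice, and saline, 5 mice, the latter on 2 arrays). Each time is a different set of outbred mice and a single pool, so differences between times cannot be told apart from differences between the mice pooled.

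After a chemical injury the colon is known to replace its lining, to clear inflammatory cells and to renew its secretory and absorptive cells. Mast cells of the mucosa carry chymases in their granules, and regenerating (Reg) lectins are secreted by epithelium in contact with bacteria. Interferons act through receptors and STAT and IRF factors that bind the interferon-stimulated response element of their target promoters. Cells that secrete much protein, such as goblet and plasma cells, hold high levels of endoplasmic reticulum (ER) chaperones, many of which are controlled through the ER stress element.

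The promoters of genes from both programmes are shown, since they are where these elements can be read. Windows are the 250 bases before the annotated start in RefSeq on GRCm38.p6, written on the gene's strand, with matches in capitals. The first motif was GAAA followed by GAAA with any 2 bases between, searched on both strands (TTTC and TTTC on the other), and overlapping matches form 1 run of capitals. Ifit1 (chr19:34640639-34640888, plus strand) and Isg15 (chr4:156200819-156201068, minus strand) are type I interferon targets that fell, and Igtp (chr11:58199306-58199555, plus strand) is a target of interferon gamma that fell.
Ifit1: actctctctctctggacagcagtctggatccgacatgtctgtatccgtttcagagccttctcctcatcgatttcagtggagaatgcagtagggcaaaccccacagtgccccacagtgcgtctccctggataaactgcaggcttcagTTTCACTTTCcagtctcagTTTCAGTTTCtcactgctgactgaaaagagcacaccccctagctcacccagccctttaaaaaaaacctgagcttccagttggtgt
Isg15: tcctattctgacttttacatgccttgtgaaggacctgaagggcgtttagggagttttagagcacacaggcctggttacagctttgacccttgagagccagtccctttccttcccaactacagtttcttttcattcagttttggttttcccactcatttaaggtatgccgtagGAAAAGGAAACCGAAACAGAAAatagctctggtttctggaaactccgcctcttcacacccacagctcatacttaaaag
Igtp: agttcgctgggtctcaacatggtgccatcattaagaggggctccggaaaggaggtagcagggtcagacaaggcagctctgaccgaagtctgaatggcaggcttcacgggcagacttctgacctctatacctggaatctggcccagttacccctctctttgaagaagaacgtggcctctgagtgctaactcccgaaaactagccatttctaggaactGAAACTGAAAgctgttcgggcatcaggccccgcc

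The other motif was CCAAT followed by CCACG with any 9 bases between, searched on both strands (CGTGG and ATTGG on the other). None of the 3 windows that follow held the interferon motif. Hspa5 (chr2:34771840-34772089, plus strand) and Hsp90b1 (chr10:86705445-86705694, minus strand) encode ER chaperones that fell between weeks 8 and 12. Pdia6 (chr12:17266339-17266588, plus strand) encodes an ER disulphide isomerase whose probe sets differed: the one used here was not called, and another fell past 2-fold.
Hspa5: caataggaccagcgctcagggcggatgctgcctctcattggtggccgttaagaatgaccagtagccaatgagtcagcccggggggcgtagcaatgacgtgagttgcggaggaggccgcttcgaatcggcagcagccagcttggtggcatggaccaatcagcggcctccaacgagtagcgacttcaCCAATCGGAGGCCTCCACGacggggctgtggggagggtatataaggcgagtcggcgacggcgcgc
Hsp90b1: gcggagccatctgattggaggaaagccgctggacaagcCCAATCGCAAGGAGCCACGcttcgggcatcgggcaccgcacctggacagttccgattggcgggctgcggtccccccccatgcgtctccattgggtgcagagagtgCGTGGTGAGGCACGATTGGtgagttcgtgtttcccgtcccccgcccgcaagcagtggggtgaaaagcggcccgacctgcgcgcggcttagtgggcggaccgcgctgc
Pdia6: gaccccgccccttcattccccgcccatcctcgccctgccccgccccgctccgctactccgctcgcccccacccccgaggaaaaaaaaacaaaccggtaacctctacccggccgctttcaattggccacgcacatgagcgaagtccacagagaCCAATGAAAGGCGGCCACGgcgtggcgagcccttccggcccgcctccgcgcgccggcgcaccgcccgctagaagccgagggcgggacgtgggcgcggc

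Of 32851 promoter windows, 978 (2.98%) held the interferon motif and 37 (0.113%) the ER stress element. Levels are array signals scaled to a common mean on each array, with values under 50 set to 50 before taking log2. Of 8251 genes on the array, 4023 had a signal of at least 100 in 1 or more of the 3 pools and were kept. On each of the 3 arrays from 47.7% to 49.2% of probe sets read less than 50, and median signals were 51.7, 53.0 and 55.8 at weeks 8, 10 and 12. Over the kept genes the week 8 array had correlations of 0.900 to 0.941 with the other 6 arrays, and the week 6 TNBS array 0.913 to 0.940. Week 8 had 0.936 with week 10 and 0.908 with week 12, while weeks 10 and 12 had 0.956 between them. Results are therefore given also as week 12 minus week 10. Ratios of 3' to 5' signal of Actb were 0.801, 0.812 and 0.818, and those of Gapdh 1.00, 0.977 and 0.869, at weeks 8, 10 and 12. The later saline pool had 0.798 for Actb, but the week 6 arrays had 1.14 and 1.23 (saline) and 1.24 (TNBS). Their Gapdh ratios, 0.912, 0.942 and 0.935, lay within the range of the 3 pools. Week 6 values are thus set beside arrays with another Actb ratio.

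Between weeks 8 and 12, 139 genes (3.46%) were at least 2-fold higher at week 12 and 120 (2.98%) at least 2-fold lower. At 1.5-fold the counts were 589 (14.6%) and 411 (10.2%). The 2 arrays of week 6 saline, labelled as replicates of RNA pooled from 5 mice, differed at least 2-fold in 14 genes (0.348%) in each direction. The labels do not say whether that RNA was pooled once, in which case these arrays show array noise without the spread between mice. The SD of the log2 difference was 0.58 between weeks 8 and 12, 0.49 between weeks 8 and 10, 0.39 between weeks 10 and 12, and 0.29 between those saline arrays. With 1 pool a time there is no replicate check of any of these differences, and a gene is said to have risen or fallen where it passed 2-fold. A gene under 50 at week 8 or 12 that reached 100 at the other passes 2-fold by the floor and filter alone. The median gene differed by 0.07, with 2253 genes above 0 and 1769 below, and with equal array medians, which moved it by -0.10, the split of the 2-fold calls was 107 higher and 158 lower. The calls were also split 70 and 92 with a floor of 100, and 61 and 81 on the log2(value + 50) scale.

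The larger part of the median difference was reached by week 10. Of the 139 rises the week 10 value lay between both ends in 118, and of the 120 falls in 95. By week 10 the median rise had gone through 62.9% of its difference and the median fall through 62.7%. Each step alone held 91 genes (2.26%) at least 2-fold higher and 75 (1.86%) lower from week 8 to week 10, and 48 (1.19%) and 52 (1.29%) from week 10 to week 12. A gene was called steady when it was at least 2-fold different over the course and moved by at least 0.3 on the log2 scale in each step. This held for 76 rises (1.89%) and 70 falls (1.74%). Just inside the 2-fold line lay Neo1 at 2.00-fold higher and P4hb at 2.01-fold lower, and just outside it lay Frat2 at 1.99-fold higher and Scin, which rounds to 2.00-fold lower.

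**Figure D1:**
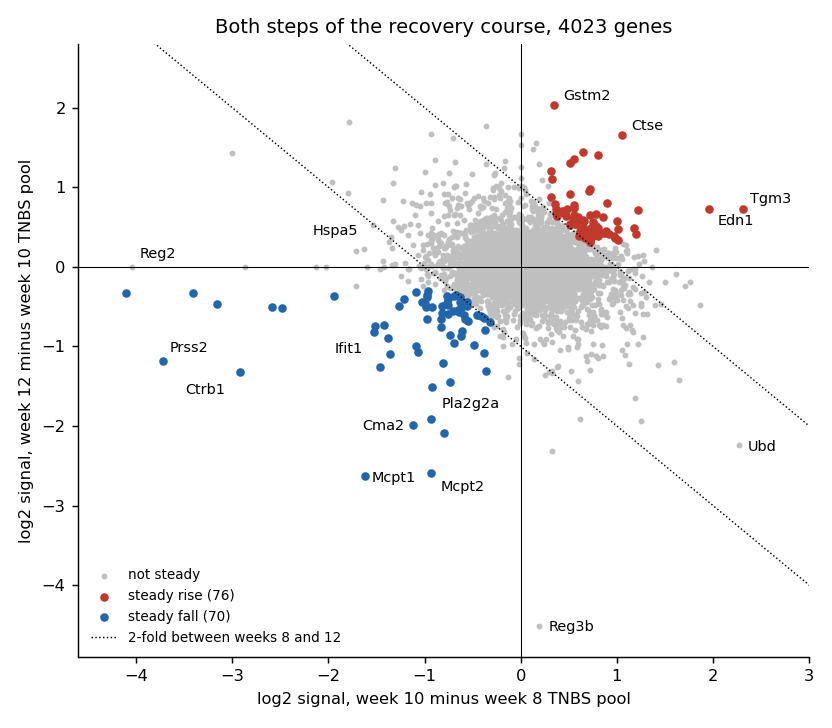
Each point is 1 of 4023 genes, with the log2 difference from week 8 to week 10 on the horizontal axis and from week 10 to week 12 on the vertical axis. Blue points are the 70 steady falls, red points the 76 steady rises, and dotted lines mark 2-fold over the whole course: Mcpt1 and Mcpt2 fell in both steps, Reg3b in the last step alone, and Reg2 in the first.

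Mast cell chymases, proteases stored in the granules of mucosal mast cells, fell in each step. Mcpt1 read 955 at week 8, 310 at week 10 and 27.0 at week 12, and Mcpt2 read 575, 302 and 21.4. Cma2, another chymase gene, read 456, 209 and 52.7. All 3 were thus highest at week 8, intermediate at week 10 and at or near the floor at week 12. From week 8 to week 12 Mcpt1 fell at least 19.1-fold, Mcpt2 at least 11.5-fold and Cma2 8.65-fold. From week 10 to week 12 alone the log2 differences were at most -2.63 and -2.59 for Mcpt1 and Mcpt2, which ended under the floor, and -1.99 for Cma2, so each was past 2-fold without the week 8 array. In the later saline pool these genes read 73.9, 72.2 and 94.6, and in the week 6 TNBS pool 1712, 1292 and 562. Kit, the receptor that mast cells need for survival, read 137, 171 and 165 and was not called.

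Of the mast cell and eosinophil list 19 genes were on the array and 4 were kept. The 3 chymases were the members that fell, where 2.98% of all genes did. Mcpt1 and Mcpt2 passed the filter through pools where they were high. The probe sets of Mcpt1 and Cma2 are marked by their suffix as sharing sequence with related genes, so signal of related chymases may be mixed in them. Another probe set of Mcpt1 read 192, 56.9 and 11.5. In pooled tissue RNA, fewer cells of a type and less RNA per cell cannot be told apart, here and in what follows.

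Secreted epithelial lectins fell at different times. Reg3b, a lectin that binds bacteria, read 4017 at week 8, 4589 at week 10 and 201 at week 12. Reg3g, its close relative that kills Gram-positive bacteria, read 199, 249 and 5.10. Both were high through week 10 and low at week 12, with falls of 20.0-fold and at least 3.98-fold from week 8. Reg1 and Reg2, relatives made by acinar and injured epithelial cells, went down earlier. Reg1 read 451, 80.5 and 56.3, and Reg2 read 823, 15.7 and 6.00. Reg2 was at the floor from week 10 on, a fall of at least 16.5-fold, and Reg1 fell 8.01-fold with most of it by week 10. Other probe sets of Reg1, Reg2 and Reg3g lay at the floor in all 3 pools, and averaging probe sets put Reg1 at -1.50, Reg2 at -2.02 and Reg3g at -0.996, the last no longer past 2-fold. A further probe set of Reg3b gave 907, 764 and 47.7, with the same order of weeks 8 and 12.

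Pla2g2a, a secreted phospholipase that attacks bacterial membranes, read 598, 312 and 82.9, a fall of 7.21-fold, against 587 in the later saline pool. Its week 8 level was thus close to saline and its week 12 level was the one that stood away from it. Defa23, of the defensins of Paneth cells, read 664, 62.7 and 8.30, on a probe set shared with other defensins. Paneth cells are known from the small intestine, and whether defensin signal in these pools came from another site was not tested. Of the 14 kept genes of the Reg and antimicrobial list (18 on the array), 2 were kept through an end where they were high. In this list 8 fell (the 4 Reg genes, Pla2g2a, and Sprr1a, Pigr and Itln1 described below) and Wfdc2 rose. Of all genes 2.98% fell and 3.46% rose. The list had a median log2 difference of -1.13 against 0.07 for all genes. The pancreatic genes described further below fell in the same pools, and Reg1 and Reg2 are also made by pancreas. Their part in the Reg values was not tested. Slpi, a protease inhibitor of mucosal fluids, went the other way without a call (349, 423 and 560), and its other probe sets read 278, 398 and 486, and 62.3, 79.2 and 61.4, with 1 more at the floor.

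Plet1, Ceacam10 and Sprr1a, of the list of injured or regenerating epithelium, fell too. Plet1, a surface protein of epithelial progenitors, read 2664, 1403 and 494, a fall of 5.40-fold past the later saline level of 742. Ceacam10, a secreted adhesion family member, read 872, 524 and 193, and its other probe set 210, 126 and 79.8. Sprr1a, a cornified envelope protein induced by epithelial stress, read 299, 124 and 88.6. Emp1, an epithelial membrane protein that was on the absorptive list, read 4602, 1770 and 952, against 2235 in the later saline pool. On the week 6 saline arrays Plet1 read 507.9 and 520.5, Emp1 1036 and 910, and Ceacam10 219 and 169, near their week 12 values. Sprr1a read 138.5 and 140.5 there, above its week 12 value. In all 4 genes week 8 was highest and week 12 lowest. Of 18 kept genes in the epithelial injury and progenitor list, these 3 fell and none rose, where 2.98% and 3.46% of all genes did, with a median of -0.47. Anxa8, an annexin of injured epithelium, read 362, 557 and 534, and did not go down with them.

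**Figure D2:**
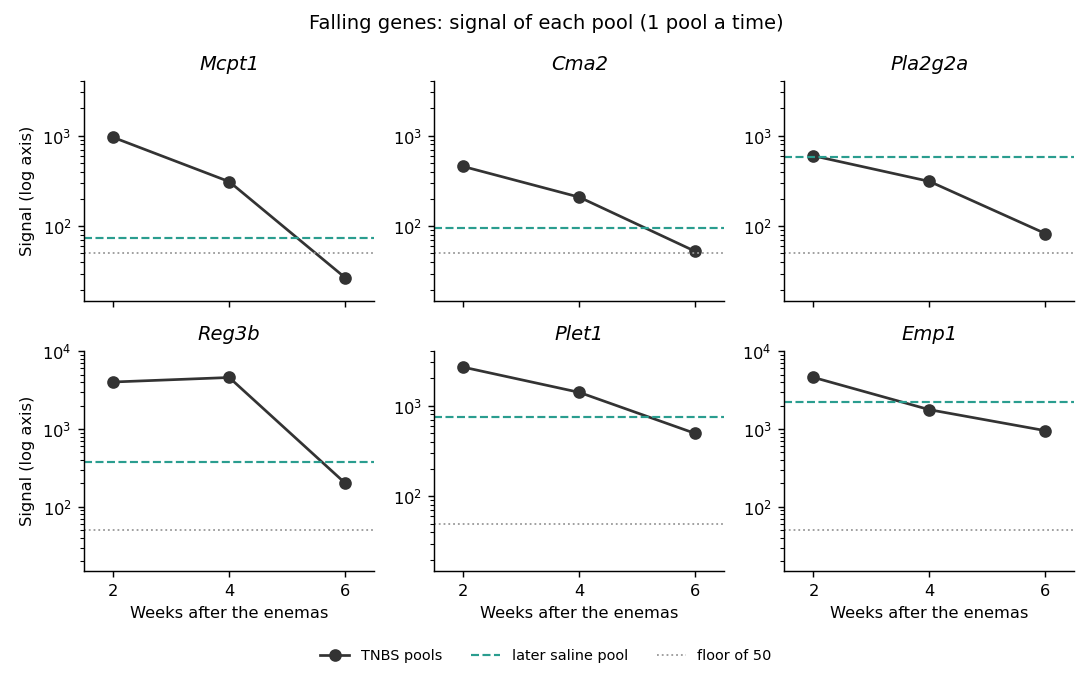
Signal on a log axis against weeks after the enemas for 6 falling genes, with 1 pool a time, the later saline pool as a dashed line and the floor of 50 as a dotted line. Mcpt1, Cma2 and Plet1 stood above saline at weeks 8 and 10 and below it at week 12, whereas Reg3b stayed at 4017 and 4589 before it dropped to 201.

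Genes induced by type I interferon were highest at week 8. Ifit1, which binds foreign RNA, read 601 at week 8, 209 at week 10 and 119 at week 12. Ifit2, its relative, read 371, 213 and 42.3. Isg15, a ubiquitin-like modifier, read 1194, 445 and 267. Usp18, the protease that removes Isg15 from its targets, read 281, 73.1 and 56.9, and Ifi27l2a, a small membrane protein, read 448, 136 and 116. Falls over the course were 5.06-fold for Ifit1, at least 7.41-fold for Ifit2, 4.46-fold for Isg15, 4.93-fold for Usp18 and 3.88-fold for Ifi27l2a. The later saline pool read 256 for Ifit1, 695 for Isg15 and 142 for Usp18, so week 8 lay above it and week 12 below it for each. On the week 6 saline arrays Ifit1 read 24.3 and 16.3, Isg15 193 and 176, and Usp18 12.6 and 8.8. Week 12 lay above those arrays for each, so its position depends on the saline pool taken. Those arrays also had another Actb ratio, as given above. Slfn4, an interferon-responsive gene of myeloid cells, read 1742, 610 and 363.

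Of 15 kept genes of the type I list (25 on the array), these 5 fell and none rose, where 2.98% and 3.46% of all genes did. Their list had a median of -0.63, or -0.50 over the 14 members above the floor in all 3 pools. The median was -0.54 in the first step and -0.16 in the last, and of the 5 Ifit2 alone passed 2-fold between weeks 10 and 12, at -2.09. Sensors and factors of the pathway moved less. Irf7, a factor that amplifies the response, read 457, 340 and 296, and Ifih1, a sensor of double-stranded RNA, read 485, 318 and 295. Rsad2, an antiviral enzyme, read 236, 93.6 and 140, and was lowest at week 10. Irf9, the DNA-binding subunit of the interferon complex, read 415, 370 and 331, and none of these 4 was called. Ifit1, Isg15 and Rsad2 were the 3 of 13 members with a promoter window that held the interferon motif shown above. Their median was -2.16, against -0.28 for the other 10, among which Ifit2 had the largest fall. Usp18 (-2.30) and Ifi27l2a (-1.96), which also fell, had no window and are in neither group. Whether the motif had a part in the falls was not tested.

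Genes induced by interferon gamma took another course. Iigp1, an interferon-inducible GTPase that attacks vacuoles of pathogens, read 219 at week 8, 336 at week 10 and 89.4 at week 12. Gbp3, a guanylate-binding protein, read 296, 386 and 163, and Gbp2 read 418, 670 and 309. Socs1, the feedback inhibitor of the receptor, read 104, 135 and 56.5. These 4 were highest at week 10 and lowest at week 12. Igtp, Irgm2 and Irgm1, further GTPases of the family, went down through both steps instead: Igtp read 191, 137 and 69.2, Irgm2 502, 330 and 189, and Irgm1 164, 109 and 82.7.

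Over the course Igtp fell 2.77-fold, Irgm2 2.65-fold and Iigp1 2.45-fold, and Irgm1 (1.98-fold lower) was not called. Of 21 kept genes 14 lay below 0, where 1769 of all 4023 genes did, with a median of -0.54. The step from week 8 to week 10 had a median of 0.11 and the step from week 10 to week 12 one of -0.41, with 10 of 21 genes at least 1.5-fold lower in the latter, where 5.17% of all genes were. Receptors Ifngr1 (262, 304 and 325) and Ifngr2 (216, 296 and 296) were not called. Ido1, an enzyme that breaks down tryptophan, rose to 144 at week 12 from under the floor, a call fixed by floor and filter. Its probe set had the suffix _r_at, and probe sequences were not used here. Another probe set of Ido1 lay at the floor in all 3 pools. Of 18 members with a promoter window 7 held the interferon motif (Gbp2, Gbp3, Gbp7, Igtp, Irgm1, Irgm2 and Socs1). All 7 lay below 0, with a median of -0.90, and the other 11 had a median of 0.02. Iigp1, which fell, had no window and is in neither group. A match is a description of these letters and not a site, and its part in the falls was not tested.

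Some MHC class II genes, which present peptides to helper T cells, peaked between the ends, and others were lowest there. H2-Ab1, a class II beta chain, read 191, 443 and 226, and H2-Aa, its alpha chain partner, read 1181, 2035 and 934. Cd74, the invariant chain that guides their assembly, read 2235, 3245 and 2185. H2-DMa, which helps load peptide, read 242, 367 and 278. The 9 kept class II genes had a median of 0.54 in the first step, -0.23 in the last and 0.15 over the course, and none was called between weeks 8 and 12. Other members ran against the peak: H2-Ea read 310, 79.6 and 166, with 20.9 in the later saline pool, and H2-Eb1 read 259, 218 and 438. Ifi30 (318, 243 and 349.5) and, by little, Ctss (2124, 2095.5 and 2349) were also lowest at week 10. Ubd, a ubiquitin-like modifier that interferon gamma induces, had the highest peak of all genes above the floor, at 54.0, 260 and 54.9. Peptide loading genes of class I did not share the peak, with Tap1 at 218, 196 and 148 and B2m, the light chain of class I, at 5116, 3828 and 3167.

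**Figure D3:**
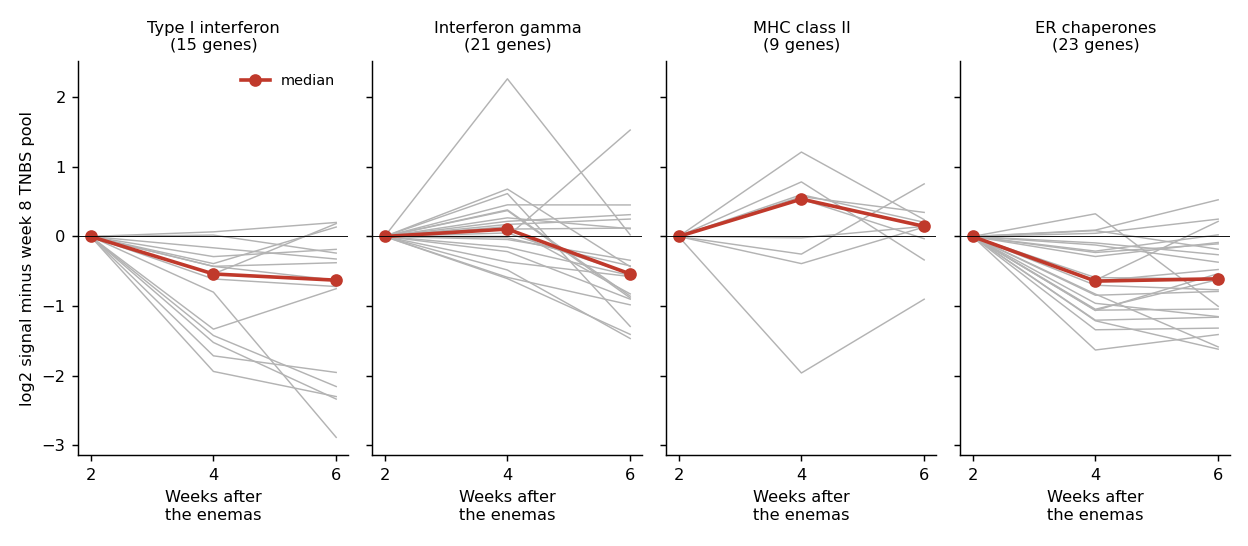
Each grey line is 1 gene and the red line the median of its list, as log2 signal minus that of the week 8 pool, against weeks after the enemas. The medians of type I interferon genes (-0.54 then -0.63 from week 8) and ER chaperones (-0.64 then -0.61) were lower by week 10. That of interferon gamma genes (0.11 then -0.54) was lower by week 12. That of MHC class II genes (0.54 then 0.15) was highest at week 10, where some members were lowest.

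Chaperones of the ER, which fold secreted proteins, fell in the first step and stayed at that level. Hspa5, the main ER chaperone (BiP), read 3147 at week 8, 1014 at week 10 and 1184 at week 12. Hsp90b1, its partner of the Hsp90 family, read 3684, 1453 and 1478. Manf, a secreted protein of the stressed ER, read 717, 311 and 321. For these 3 genes weeks 10 and 12 lay within 1.5-fold of each other, and the later saline pool read 1647, 1797 and 485. Pdia3, a disulphide isomerase, read 1347, 581 and 438, and Pdia4 read 530, 298 and 176, so both went on down to week 12. Dnajb9 (241, 124 and 108) and Dnajb11 (324, 155 and 157), co-chaperones of Hspa5, fell too.

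Of 23 kept genes in the ER chaperone list (29 on the array), 8 fell and none rose, where 2.98% and 3.46% of all genes did. Below 0 lay 19 of them, as did 1769 of all 4023 genes. The median was -0.61 over the course, -0.64 in the first step and 0.04 in the last, and 14 of 23 were at least 1.5-fold lower at week 10 than at week 8, as were 7.68% of all genes. Without the week 8 array the sign of the median and of Hspa5 (0.22), Hsp90b1 (0.02) and Manf (0.04) was thus turned, and the fall of the list rests on that array. The later saline pool summed to 12448 over the kept members, against 19431, 11063 and 11110 at weeks 8, 10 and 12. P4hb, another disulphide isomerase, fell by week 12 (147, 184 and 73.3) on a probe set with the suffix _r_at, and another of its probe sets lay at the floor. Probe sets disagreed for 3 members. Pdia6 read 286, 185 and 333 and was not called, but its other probe sets read 232, 83.8 and 103, past 2-fold lower, and 245, 138 and 209. Sel1l, which serves the removal of misfolded proteins, read 82.2, 87.6 and 118, and on another probe set 79.6, 67.4 and 52.6. Another probe set of Dnajb9 read 116, 83.8 and 143, against the fall given above. Herpud1, of the same removal path as Sel1l, read 292, 301 and 347 and was not called. Xbp1, a factor that drives the programme, read 735, 626 and 682, and Atf4, a factor of the stress response, 674, 582 and 685. The ER stress element was in 6 of 21 members with a window, where the share of all windows was 0.113%. The median difference was -0.58 for these 6 (Canx, Creld2, Dnajc3, Hsp90b1, Hspa5 and Pdia6) and -0.61 for the other 15.

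Goblet cell products, the mucus proteins of the colon, were lower with the same timing. Agr2, a disulphide isomerase needed for mucin, read 9523, 3532 and 3722, on a probe set of shared sequence, while its other 2 probe sets lay at the floor and the mean of all was -0.45, under 2-fold. Fcgbp, which cross-links mucus, read 7788, 4002 and 3696 (-0.995, under 2-fold, on averaging with its other probe set), and Itln1, a lectin of goblet cells, read 8126, 4119 and 4028. Each fell, with weeks 10 and 12 within 1.5-fold of each other, and the later saline pool read 4476, 4709 and 6662. Spink4 (4974, 3209 and 2371) and Zg16 (7588, 5141 and 3776), a protease inhibitor and a lectin of the mucus, went down in both steps. Tff2, a trefoil peptide best known from stomach, read 134, 4.10 and 3.10.

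Of 23 kept goblet genes these 6 fell and 1 rose, where 2.98% and 3.46% of all genes did. Below 0 lay 18 of them, as did 1769 of all 4023 genes. The median was -0.40, or -0.15 with quantile normalization. Genes with the highest signals shifted as a class: the fifth of kept genes with the highest mean signal had a median of -0.06, against 0.08 to 0.13 in the 4 equal groups of lower signal. Ern2, the goblet and gut form of the Ire1 sensor, rose 2.69-fold (75.5, 108 and 203). Spdef, a goblet cell factor, read 195, 211 and 210, so the factor did not go down with the products. Pigr, the receptor that carries IgA into the lumen, fell 2.38-fold (9152, 4531 and 3838). Igha and Jchain, parts of that IgA, were lower without a call, at 7444, 5182 and 4263, and 1666, 1396 and 1018.

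The largest steady rises were those of Tgm3, Ctse and Edn1. Tgm3, a transglutaminase that cross-links proteins, read 174 at week 8, 862 at week 10 and 1428 at week 12. Ctse, an intracellular aspartic protease, read 272, 567 and 1785, and its other probe sets read 54.4, 90.8 and 264, and 224, 394 and 1571. Edn1, the precursor of the vasoconstrictor endothelin, read 62.8, 243 and 403, and another probe set 84.1, 195 and 370. All probe sets of these 3 genes were lowest at week 8 and highest at week 12. Tgm3 rose 8.23-fold, Ctse 6.55-fold and Edn1 6.42-fold. Ctse was read on probe sets of shared sequence, as were Lama3, Reg3b and Ceacam10. From week 10 to week 12 the log2 differences were 0.73, 1.65 and 0.73. The later saline pool read 704, 581 and 158, so each gene crossed from below to above it.

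Gstm2, a glutathione transferase, read 163, 208 and 851, and another probe set 98.6, 125 and 146, which put the mean of both at 1.47. Slc26a2, a sulphate transporter of colonocytes, read 78.3, 137 and 362, and Wfdc2, a secreted protein related to protease inhibitors of mucus, read 311, 512 and 1006. Pam, an enzyme that amidates peptides, read 103, 151 and 389. Lama3, a chain of the laminin that anchors epithelium, read 70.4, 159 and 224, and Lamb3, its partner chain, 335, 761 and 723. Sult1a1, a sulphotransferase, read 95.3, 218 and 290, and Gsta4, a transferase for lipid peroxides, 56.4, 105 and 184. In each of these week 8 was lowest, and in each but Lamb3 week 12 was highest.

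The other leading steady rises were of varied function. Cand1, an exchange factor of ubiquitin ligases, rose 4.24-fold (50.9, 79.7 and 216) and Ap2b1, a clathrin adaptor subunit, 3.52-fold (55.5, 79.3 and 195). Leng8 (55.0, 128 and 210), Snrk, a kinase (77.5, 96.7 and 223), and Asxl1, a chromatin protein (89.6, 162 and 250), rose 3.81-fold, 2.88-fold and 2.79-fold. Many rises started near the floor: 27 of the 139 had an end at the floor, as did 22 of the 120 falls. Those that reached 100 at the other end were past 2-fold by the floor and filter alone. The largest of these rises, with lower bounds, were Prkar2a, a regulatory subunit of protein kinase A, at 3.28-fold, Gtf2f2, a transcription factor subunit, at 3.18-fold, and Maz, a zinc finger factor, at 3.16-fold. Gtf2f2 was read on a probe set with the suffix _r_at. Between the week 6 saline arrays the log2 difference was -1.03 for Leng8 and -0.80 for Tgm3, against last steps of 0.71 and 0.73. It was -1.13 for Prkar2a, -0.72 for Slc26a2, 0.71 for Pam and 0.69 for Ap2b1. Other leading rises differed less there, with -0.05 for Ctse, -0.03 for Edn1 and 0.05 for Cand1.

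**Figure D4:**
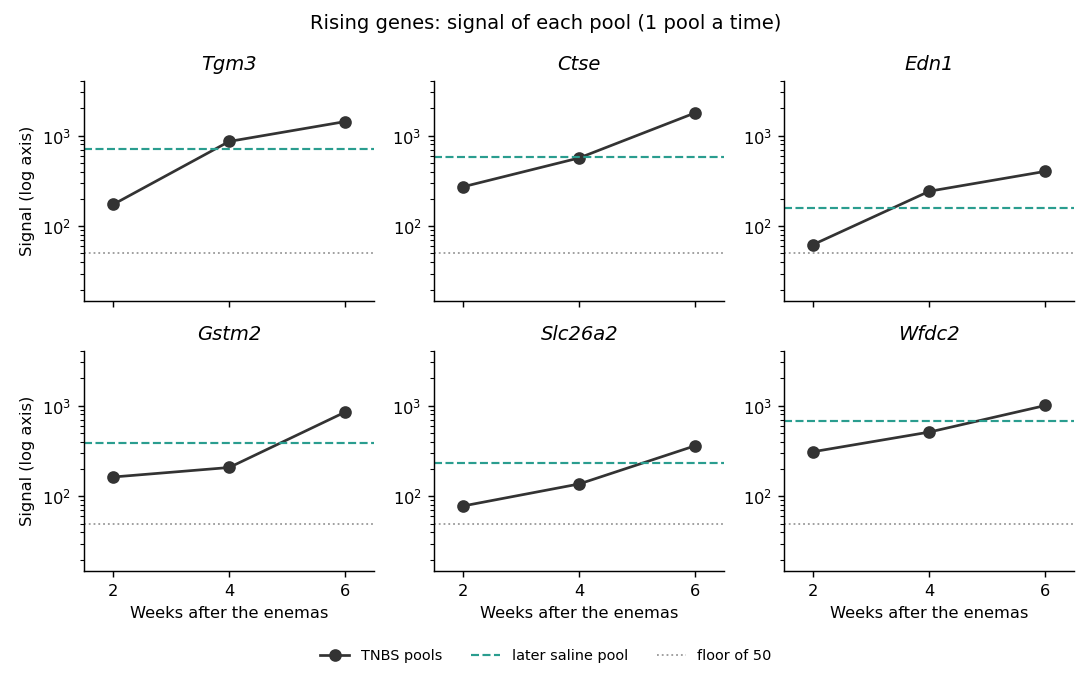
Signal on a log axis against weeks after the enemas for 6 steady rises, with 1 pool a time, the later saline pool as a dashed line and the floor of 50 as a dotted line. Every gene was below saline at week 8 and above it at week 12, from 78.3 to 362 for Slc26a2 and from 174 to 1428 for Tgm3.

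Absorptive colonocyte genes divided. Hnf4a, a factor of enterocyte identity, rose 2.51-fold (119, 220 and 299). Apob, the apolipoprotein of chylomicrons, rose at least 3.04-fold, to 152, and Cldn2, a claudin of leaky tight junctions, at least 2.79-fold, to 139. Against these, Emp1 and Fabp2, a fatty acid carrier (2102, 1035 and 763), fell. Car1, a carbonic anhydrase (4224, 2848 and 2472), Krt20, a keratin of surface cells (5086, 3054 and 3122), and Aqp4, a water channel (3673, 1633 and 2145), were lower at week 12 without a call. Of 45 kept genes 7 rose and 2 fell, where 3.46% and 2.98% of all genes did. Of the rises, those of Apob and Cldn2 began under the floor and were fixed by the floor and filter. The list had a median of -0.10 and a mean of 0.09, which differ in sign. With quantile normalization the median was 0.01.

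Among 41 kept drug metabolism genes 6 rose and 1 fell, where 3.46% of all genes rose and 2.98% fell. At 1.5-fold 14 were higher and 2 lower, against 14.6% and 10.2% of all genes. Besides those named above, Gstt1, a glutathione transferase, rose 2.54-fold (81.2, 188 and 206), and Ces1d, a carboxylesterase, at least 2.98-fold, to 149, on a probe set of shared sequence. Ugt2b5, a glucuronosyltransferase, fell 2.55-fold (166, 98.4 and 65.2), also on a shared probe set. Ces1d and Cyp2f2, another of the rises, were under the floor at week 8 and were kept through pools where they were high. The list median was 0.17 against 0.07 for all genes, and 0.07 against -0.04 with equal array medians. Over the 39 members above the floor in all 3 pools it was 0.07. Of 33 solute carriers 3 rose and 1 fell, where 3.46% and 2.98% of all genes did. Their median was 0.15 against 0.07 for all genes, and 0.05 against -0.04 with equal array medians. Both medians lay near that of all genes. Slc34a2, a phosphate transporter, read 67.6, 144 and 166, and Slc6a4, the serotonin transporter, 59.4, 134 and 132. Slc30a4, a zinc exporter, read 653, 370 and 263, and was the one that fell. Averaging probe sets put Slc6a4 at 0.88, Slc30a4 at -0.65 and Sult1a1 at 0.80, all under 2-fold.

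Several matrix genes were lowest at week 12 without a call. Col1a1, the main fibrillar collagen, read 523, 434 and 283, Col3a1 930, 532 and 526, and Fn1 (fibronectin) 404, 298 and 228. Col4a1, of basement membranes, read 819, 733 and 460, and Col5a2 398, 296 and 225. None of these 5 passed 2-fold on the probe set used, though another of Col3a1 did (157, 80.9 and 56.0). Hspg2 (perlecan, a basement membrane proteoglycan) fell 2.42-fold with no further fall after week 10 (233, 94.0 and 96.2), and Col18a1 2.32-fold (192, 123 and 82.8), with its other 4 probe sets at the floor and a mean of -0.24. Of 30 kept collagen and matrix genes 3 fell and 2 rose, where 2.98% and 3.46% of all genes did, 9 were at least 1.5-fold lower, as were 10.2% of all genes, and the median was -0.25. Smooth muscle genes had a median of -0.29 with 1 of 20 past 2-fold lower, where 2.98% of all genes were. It was Actg2, an actin of visceral muscle (4657, 3004 and 2316). Tagln read 5502, 4536 and 3352, and Des (desmin) 458, 302 and 247, while Csrp2 read 924, 1118 and 1349.

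Of 26 growth factor and TGF-beta genes 2 fell, where 2.98% of all genes did. They were Igfbp2, which binds insulin-like growth factors (236, 106 and 104), and Id1, a target of bone morphogenetic proteins (1355, 1038 and 662). Their list had medians of 0.25 in the first step and -0.32 in the last. Tgfb3, a ligand, read 85.5, 115 and 145, and Acvr2b, an activin receptor, 54.4, 132 and 106. Ltbp4, which holds TGF-beta in the matrix, read 147, 362 and 278. None of the 12 matrix proteases and inhibitors was called. Timp1, an inhibitor, read 81.5, 40.9 and 154, but the arrays of the week 6 saline RNA read 69.8 and 286.5.

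Genes of the cell cycle were mostly lower after week 8. Mad2l1, of the spindle checkpoint, read 261, 180 and 134, Smc4, a condensin subunit, 491, 300 and 250, and Top2a, a topoisomerase of dividing cells, 112, 59.0 and 74.5. Birc5 (survivin) read 140, 77.7 and 93.5. Of 35 kept genes 27 lay below 0, where 1769 of all 4023 genes did, with a median of -0.37, but none fell past 2-fold. Ccnd2, a cyclin of G1 phase, rose 2.67-fold (78.5, 61.3 and 210) and Mcm5, of the replicative helicase, 2.02-fold (171, 171 and 346, with another probe set at the floor). Without the week 8 array the median was 0.13.

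Respiratory chain genes had a median of -0.25, with 44 of 55 below 0, where 1769 of all 4023 genes were. A share near the background of 2.98% passed 2-fold, the 2 genes Atp5j (2369, 1450 and 987) and Atp5k (158, 93.1 and 68.0), subunits of ATP synthase. Ndufv1, of complex I, read 1138, 1546 and 1848 without a call. With quantile normalization the median was -0.14. Of 28 fatty acid oxidation genes 1 fell (Fabp2) and none rose, where 2.98% and 3.46% of all genes did. Acaa2, a thiolase, read 1418, 2423 and 2788, and Dbi, a carrier of acyl-CoA, 1674, 917 and 928. Ribosomal protein genes had a median of -0.21 that turned to 0.22 with quantile normalization, so no direction is given for them. Rpl41 read 4600, 2162 and 1080, on a probe set of shared sequence, against 1109 in the later saline pool and 11414 and 9879 on the week 6 saline arrays.

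Leucocyte lists other than that of mast cells held few calls. Of all genes 3.46% rose and 2.98% fell. Of 35 neutrophil and acute inflammation symbols 30 were on the array and 4 were kept, with differences of 0.01 to 0.32 and no call. Among 17 macrophage genes none was called (median -0.03): Lyz2 (lysozyme) read 506, 413 and 466, Csf1r, the growth factor receptor of macrophages, 143, 139 and 109, and Tyrobp, a signalling adaptor, 155, 122 and 96.0. Mmp12, a macrophage elastase, read 50.9, 108 and 40.1 and was highest at week 10. Ccl8, a chemokine for monocytes and other leucocytes, fell 3.16-fold (219, 135 and 69.3), the one call among 7 chemokines. Il13ra1, a receptor chain for interleukin 13, fell 2.09-fold (505, 473 and 241), the one call among 13 interleukin and receptor genes.

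Of 5 kept T and NK genes none was called, and of 12 B cell genes Fcer2a, the low-affinity IgE receptor, rose at least 2.02-fold, to 101. Fcer2a was under the floor at weeks 8 and 10 and was kept through week 12, so its call was fixed by the floor and filter. Of all genes 3.46% rose and 2.98% fell. Ms4a1 (CD20) read 307, 166 and 338, and 300, 198 and 196 on another probe set, and Cd79a, of the B cell receptor, 243, 244 and 379. Cd55, which protects cells from complement, fell 2.56-fold (226, 100 and 88.2), the one call among 10 complement genes. Of 24 immediate early genes 1 fell, Jund, a subunit of AP-1 (5131, 2602 and 1993). The heat shock list (27 genes) and the antioxidant list (25 genes) held no call, with Hsp90aa1 at 2365, 1175 and 1204, and Mt2, a metallothionein, at 470, 1022 and 717. The enteroendocrine and enteric neuron lists (5 genes each) held no call either.

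Pancreatic enzyme genes were lower after week 8, mainly by the first step. Ctrb1 (chymotrypsinogen) read 1790, 236 and 94.4, Cel (carboxyl ester lipase) 1072, 120 and 87.2, and Clps (colipase) 1125, 438 and 204. The probe set of Ctrb1 had the suffix _r_at. Prss2, a trypsinogen on a probe set of shared sequence, read 1502, 114 and 3.20, and Cela2a, an elastase, 1084, 62.8 and 32.7. Each was highest at week 8, and the list had a median of -2.45 in the first step and -0.27 in the last. Reg2, Pnliprp1 and Pnliprp2 were at the floor from week 10, and Prss2 and Cela2a at week 12. The median of the last step is thus set in part by the floor. Of 12 kept members (18 on the array) 10 fell, where 2.98% of all genes did, and 5 of the 12 passed the filter through an end where they were high. Zg16 and Reg2, already given with other lists, are among the 10. The median was -2.67 over the 12 and -1.52 over the 7 above the floor in all 3 pools, as the mast cell list had -3.32 over 4 and -1.42 over 2. Leaving out Zg16 and Cela1, which were high on all arrays, the other 16 summed to 8811, 1569 and 924 at weeks 8, 10 and 12. The sum was 1515 in the later saline pool, 5539 in the week 6 TNBS pool, and 1481 and 1652 on the week 6 saline arrays. Amy1, an amylase gene, and the islet genes Ins2 and Iapp were under the floor in all 3 pools.

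Haemoglobin genes, markers of red blood cells, fell in both steps: Hbb-b2 read 468, 170 and 71.1, and Hba-a1 1231, 587 and 281. Adipose genes fell in part. Adipoq (adiponectin) read 143, 130 and 23.9, Car3, a carbonic anhydrase of fat and muscle, 151, 90.5 and 31.4, and Scd1, a desaturase of lipid synthesis, 1224, 940 and 443. Adipoq and Car3 ended under the floor, so their calls were fixed by the floor and filter. Plin2, a lipid droplet protein, rose 2.56-fold (314, 765 and 802), and Acly, which makes acetyl-CoA, 2.01-fold (701, 721 and 1409). Skeletal muscle genes (4 kept of 22) held no call, and Acta1 and Ckm, the defining ones, were no higher than 79.4 and 42.6 in the 3 pools. Of 12 squamous epithelium genes 1 rose (Tgm3) and 1 fell (Sprr1a), where 3.46% and 2.98% of all genes did. Keratins Krt5 and Krt14 were under the floor. The part of pancreas, blood and fat in the falls of other genes was not tested. Leaving out the members of the pancreas, muscle and adipose lists and the haemoglobin genes left 137 rises, 104 falls, 76 steady rises and 59 steady falls.

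A small set of genes stood apart at week 10 alone. By at least 2-fold, 9 genes were higher at week 10 than at both other times and 5 were lower. Besides Ubd, and with H2-Ab1 just short of 2-fold, those above the floor in all 3 pools were Pea15a, a regulator of cell death (59.4, 186 and 69.4), Cirbp, an RNA-binding protein induced by cold (102, 307 and 134), Nr1d1, a repressor of the circadian clock (99.9, 228 and 72.6), and Pccb, of propionate breakdown (116, 253 and 109). Lower at week 10, besides H2-Ea, were Fahd1, a mitochondrial hydrolase (710, 287 and 677), Rnf2, of the Polycomb complex (147, 58.4 and 121), Tyms-ps, a pseudogene (187, 54.1 and 191), and the locus D17H6S56E-5 (433, 54.2 and 146), which was named after its values were seen. Just short of 2-fold were Apoc2, the cofactor of lipoprotein lipase (148, 74.1 and 170), and Anxa7, an annexin (137, 66.7 and 128). Fahd1 was read on a probe set of shared sequence, and Tyms-ps on one with the suffix _r_at.

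**Figure D5:**
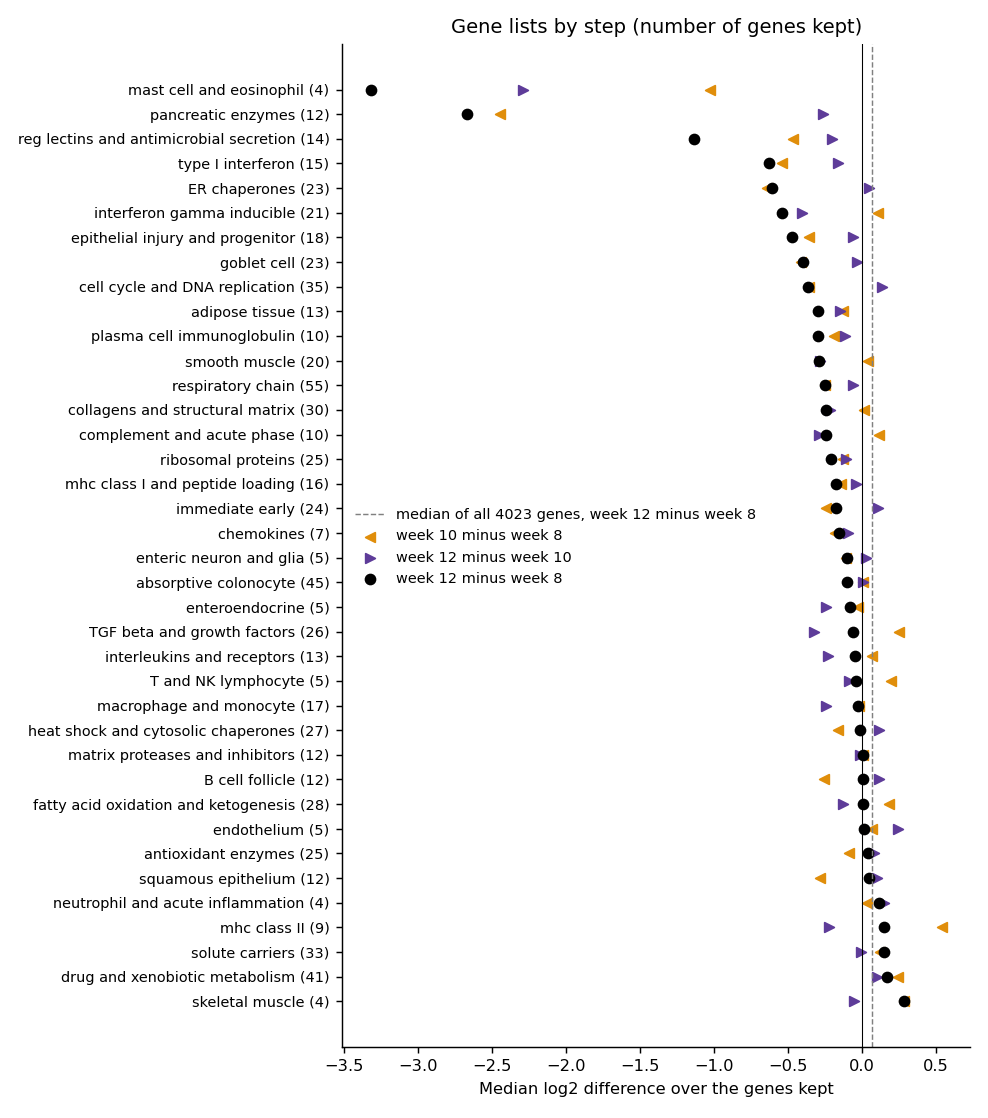
Median log2 difference of each gene list over the whole course (black), in the first step (orange) and in the last step (purple), with the number of kept genes in brackets and the median of all genes as a dashed line. The mast cell list had a median of -3.32, the pancreas list -2.67 and the Reg list -1.13, which include members at the floor in a pool, and MHC class II genes had steps of 0.54 and -0.23.

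A straight line over 2, 4 and 6 weeks was fitted to each gene with limma, which leaves 1 residual degree of freedom. The error of a gene joins the departure of its middle pool from a line to a value shared by genes of similar signal. That shared value carried 6.25 degrees of freedom, and neither part is the spread between mice. At an adjusted p under 0.05 the fit called 23 of 4023 genes (0.572%), 5 rising (0.124%) and 18 falling (0.447%), and 618 (15.4%) had an unadjusted p under 0.05. The rising ones were Ctse, Tgm3, Edn1, Slc26a2 and Wfdc2. Among the falling ones were all 3 chymases, Pla2g2a, Plet1, Emp1, Ceacam10, Ifit1, Ifit2, Isg15 and Slfn4, the haemoglobins, Ctrb1, Clps and Prss2, Rpl41 and Eef1a1, a translation factor that read 7310, 4112 and 2606. Mcpt1, Mcpt2, Prss2 and Ifit2 were under the floor at week 12, so their slopes are set in part by the floor. The slope of Cma2 was -0.78 log2 units a week (limma, SE 0.083, adjusted p = 0.013), and that of Ctse 0.68 (SE 0.070, adjusted p = 0.013). Genes that changed in 1 step, such as Reg3b (limma, adjusted p = 0.14) and Hspa5 (adjusted p = 0.24), were not called. The count ranged from 0 to 168 over the other settings tried, with 0 where probe sets were averaged, where low genes were kept, or where the spread was not tied to intensity.

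Set beside the later saline pool, steady rises had a median log2 difference of -0.78 at week 8 and 0.55 at week 12. Steady falls had medians of 0.88 and -0.61, and not every steady gene crossed the saline level by 1.5-fold. Of the 76 steady rises, 58 were at least 1.5-fold below saline at week 8, where 8.87% of all genes were, and 33 were at least 1.5-fold above it at week 12, where 5.02% were. Of the 70 steady falls, 52 were at least 1.5-fold above saline at week 8 (6.91% of all genes) and 38 at least 1.5-fold below it at week 12 (4.62%). The other 43 rises and 32 falls lay within 1.5-fold of saline at week 12, and 18 rises and 18 falls did so at week 8. These genes were chosen for their week 8 and week 12 values, so their positions are a description. The saline mice were killed at weeks 8 and 10, and week 12 had no saline control of its own age.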

How the data were processed

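Mouse colon RNA was measured in 7 samples, each a pool, on Affymetrix arrays of 12488 probe sets, and the 3 TNBS pools of weeks 8, 10 and 12 are described here. The deposited values are MAS5 signal intensities on a linear scale, which the authors scaled to a target of 150 on each array, per the labels, and the 2% trimmed mean was checked to be that on every array. No version of MAS5 and no genome build is given in the sources used here, and detection calls were not used here. Cross-hybridising probe sets and low signals, which MAS5 leaves noisy, limit single values, and the number of arrays limits the precision.

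Signals were floored at 50 and put on the log2 scale. Control probe sets (66), those with several symbols (396) and those with none (1193) were left out, and 10833 had 1 symbol, of which 10817 matched RefSeq. Each of 8251 genes took its probe set of the highest mean, and 4023 reached 100 in at least 1 of the 3 pools. Calls are 2-fold differences between single pools, with 1.5-fold as a wider call. Steady genes passed 2-fold and moved at least 0.3 in each step. A straight line over weeks was fitted with limma (3.58.1, R 4.3.3) with an intensity trend and Benjamini-Hochberg adjustment, and the script was tested on simulated data. Other steps used Python 3.11.15, numpy 2.4.6 and pandas 2.3.3. Named genes are the 15 largest steady falls and rises above the floor, the 6 largest each way at the floor at an end, the 6 furthest above and below at week 10, up to 5 members of each list with the largest differences, and members that show where a list did not move together. The 38 lists held 1506 symbols, of which 1194 distinct ones were on the array and 651 were kept. The members and lists were chosen with earlier results of these data known. Alternatives were other floors (25 and 100), filters, probe set rules, scalings, step sizes, log2(value + 50) and week 12 against week 10. Promoter letters are RefSeq's on GRCm38.p6.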

Additional observations from a re-analysis of the deposited data

How the results depend on the processing

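Counts past 2-fold and of steady genes stayed within 1.5 times of those reported under most settings. The exceptions among genes at least 2-fold higher were 70 with a floor of 100, 61 on the log2(value + 50) scale and 48 without the week 8 pool (week 12 against week 10), and among those lower 52 without the week 8 pool. Steady rises numbered 38 with a floor of 100, 35 with log2(value + 50), 118 with steps of any size and 32 with steps of 0.5, and steady falls 38 with steps of 0.5. The limma count of 23 became 8 with a floor of 100, 0 with no filter, 0 with the mean of probe sets, 121 with equal array medians, 168 with quantile normalization, 60 on the log2(value + 50) scale, 0 with no intensity trend and 95 with all 7 arrays in the fit. At an unadjusted p under 0.05 the limma fit gave from 527 to 840 genes over these settings.

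Without the week 8 pool the sign turned for the median of the ER chaperone list (0.0434) and for Hspa5 (0.22), Hsp90b1 (0.0241), Manf (0.0434), Hspg2 (0.0334), Lamb3 (-0.0731), Agr2 (0.0752) and Slc6a4 (-0.0218). Of 38 lists 11 had a median of the other sign in that step, from -0.23 to 0.13, among them cell cycle (0.13) and MHC class II (-0.23). The cause was not tested. Of 91 named genes past 2-fold, 35 were still past it in the same direction without the week 8 pool, 69 with a floor of 100, 75 with log2(value + 50), 81 where probe sets were averaged, 84 with quantile normalization and 87 with equal array medians. Leaving out genes of pancreas, muscle, fat and blood was added after seeing the data. No paired analysis was possible because each time is 1 pool and the labels number no replicates across groups. Between 47.7% and 49.2% of probe sets lay under the floor, where values have no order.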

Other observations

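Genes of the circadian clock were looked at after Nr1d1 was seen to be highest at week 10. Nr1d2, a related repressor, read 191 at week 8, 273 at week 10 and 111 at week 12, and Tef, an output factor of the clock, read 191, 234 and 93.7. Per3 read 87.7, 131 and 109, and Bhlhe40 read 220, 268 and 157. These were highest at week 10. Arntl, of the activating arm, read 117, 96.5 and 174, Cry1 242, 185 and 336, and Clock 113, 126 and 172, with week 12 highest. The hour at which the mice were killed is not given in the sources used here, and with 1 pool a time these values have no replicate check.

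Some genes outside the lists that fell between weeks 8 and 12 were also singled out after their values were seen. Msmo1, an oxidase of cholesterol synthesis, read 730, 370 and 261, and Kdelr3, a receptor that returns proteins to the ER, read 332, 167 and 122. Selenos, a selenoprotein of the ER membrane, read 328, 168 and 107, and Slfn2, of the same family as Slfn4, read 417, 220 and 155. All 4 were highest at week 8 and lowest at week 12, and in the later saline pool they read 407, 160, 180.0 and 216.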
